A study of Homo sapiens with 18 samples.

Results

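The genes described here are 7 genes of serotonin-making (enterochromaffin-like) endocrine cells: TPH1, DDC, GCH1, SLC18A1, FEV, LMX1A and TAC1. They were chosen by name, through the symbols of their Ensembl identifiers, and are 7 of the 57808 genes of the count table. Each was followed in all 18 libraries. All 7 were found as single rows. On GRCh38.p14, TPH1 lies on chromosome 11 (18017555 to 18046269), DDC on chromosome 7 (50458442 to 50565405), GCH1 on chromosome 14 (54842017 to 54902826), FEV on chromosome 2 (218981087 to 218985184), LMX1A on chromosome 1 (165201867 to 165356715) and TAC1 on chromosome 7 (97732086 to 97740472). SLC18A1 lies on chromosome 8.

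Serotonin is made from tryptophan in a pair of steps. TPH1, the tryptophan hydroxylase of peripheral tissues, adds a hydroxyl group with tetrahydrobiopterin as cofactor, and DDC, aromatic L-amino acid decarboxylase, removes the carboxyl group. GCH1, GTP cyclohydrolase, makes the first intermediate of that cofactor. SLC18A1 (VMAT1) loads monoamines into the secretory vesicles of endocrine cells. FEV (PET1) is an ETS-family transcription factor of serotonin neurons, also found in islet and gut endocrine cells, and LMX1A is a LIM-homeodomain factor of intestinal enterochromaffin cells. TAC1 encodes the precursor of substance P and neurokinin A, peptides that enterochromaffin cells can store with serotonin. Cells with this gene set are a known by-product of protocols that turn stem cells into beta cells.

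All libraries came from the human embryonic stem cell line MEL1 with a GFP reporter at INS, so that insulin-expressing cells fluoresce. The stages were undifferentiated cells (hPSC), definitive endoderm (DE) and beta-like cells derived from stem cells (sBC), made in a stirred bioreactor. RNA was read in hPSC, in DE and in both sorted fractions of sBC (GFP+ and GFP-), total ribosome footprints (Ribo) in hPSC and DE, and footprints pulled down with an anti-FLAG antibody (IP-Ribo) in hPSC, DE and GFP+ sBC. Each of these 9 groups had 2 libraries. Per the labels, hPSC and DE carried RPL22-FLAG, a tagged ribosomal protein, in every assay. GFP+ sBC for IP-Ribo received RPL22-FLAG by lentivirus, and the sBC of the RNA libraries are labelled GFP+ or GFP- with no tag named. For these IP-Ribo libraries GFP+ is given in the genotype label, while their titles name no sort. The stages are 1 cell line, and whether libraries with 1 label came from separate cultures is not stated, so the p-values measure the spread between these libraries, which may be technical.

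The 300 bases around the start site (250 before it and 50 after it) were read for the 5 genes with an entry in the RefSeq promoter table (GRCh38.p14): TPH1, DDC, FEV, LMX1A and TAC1. GCH1 and SLC18A1 were not matched. The motifs searched on both strands were TAATTA, a core bound by many homeodomain factors (it is its own reverse complement), CCGGAA, a core of ETS-family sites, and TATAAA, the TATA box. No window held more than 1 kind of motif, so no matches of different motifs overlapped. TAATTA was found in 3 of the 7 windows of these 5 genes, those of TPH1, FEV and TAC1, and in 4.8% of all 35116 promoters of that table. Neither CCGGAA (17.2% of all promoters) nor TATAAA (11.5%) was found in any of the 7 windows of the 5 genes. The 3 windows with TAATTA are shown because they hold this motif. The windows of DDC and LMX1A held none, though all 7 genes were high in the same sBC libraries. Capitals mark TAATTA, which starts 172 bases before the start site in TPH1, 161 before it in FEV and 100 before it in TAC1. A match is a description of these letters, not a bound site.
TPH1, chr11:18046220-18046519, minus strand: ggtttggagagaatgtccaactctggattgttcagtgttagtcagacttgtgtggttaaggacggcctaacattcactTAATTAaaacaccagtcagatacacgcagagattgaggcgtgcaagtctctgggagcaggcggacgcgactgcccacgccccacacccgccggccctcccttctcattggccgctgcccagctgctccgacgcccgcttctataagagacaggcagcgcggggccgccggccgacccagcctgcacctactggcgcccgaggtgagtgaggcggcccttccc
FEV, chr2:218985135-218985434, minus strand: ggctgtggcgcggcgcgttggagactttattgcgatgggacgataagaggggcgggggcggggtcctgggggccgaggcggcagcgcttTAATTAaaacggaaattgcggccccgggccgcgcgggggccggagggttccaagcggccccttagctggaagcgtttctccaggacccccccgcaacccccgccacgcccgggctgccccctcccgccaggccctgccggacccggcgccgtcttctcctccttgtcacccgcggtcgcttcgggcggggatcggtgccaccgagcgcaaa
TAC1, chr7:97731836-97732135, plus strand: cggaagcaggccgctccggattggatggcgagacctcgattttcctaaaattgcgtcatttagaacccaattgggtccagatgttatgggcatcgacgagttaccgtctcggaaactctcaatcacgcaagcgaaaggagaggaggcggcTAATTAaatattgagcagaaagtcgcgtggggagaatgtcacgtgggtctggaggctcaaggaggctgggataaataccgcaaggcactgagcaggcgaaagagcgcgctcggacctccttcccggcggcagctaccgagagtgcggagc

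The RNA libraries held 27359178 to 92533993 estimated reads and the footprint libraries 6606248 to 30167927. Levels are given in CPM, a gene's count relative to the library's total, after TMM scaling within each assay. They are not divided by gene length, so they compare libraries for 1 gene and not genes with each other. The labelled stages matched their markers: the summed CPM of 5 pluripotency markers was 7550 to 8048 in hPSC RNA and 18.2 to 20.6 in GFP+ sBC RNA, and that of 5 endoderm markers was 3300 to 3456 in DE RNA and 12.1 to 12.5 in hPSC RNA. INS was listed at 0 in hPSC and DE, at 4397 and 4828 CPM in GFP+ sBC RNA and at 1702 and 981 CPM in GFP- sBC RNA. The GFP+ sBC RNA held markers of alpha as well as beta cells: 5 alpha cell markers summed to 24317 to 37001 CPM and 8 beta cell markers to 5787 to 6032 CPM. Whether the same cells held both cannot be told from bulk RNA. In such bulk samples, fewer cells of a type and less RNA per cell cannot be told apart.

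All 7 genes were higher in GFP+ sBC than in hPSC RNA, and all 7 were also higher in GFP- sBC than in hPSC. TPH1 stood at 0.868 and 0.844 CPM in hPSC, 0.157 and 0.157 in DE, 646 and 888 in GFP+ sBC and 194 and 1014 in GFP- sBC. Every sBC library was far above every hPSC and DE library for this first enzyme of the pathway, and its log2 fold change over hPSC was 9.80 ± 0.91 (SE) in GFP+ sBC (edgeR quasi-likelihood test, adjusted p = 9.08e-05). DDC, the second enzyme, stood at 0.235 and 0.197 CPM in hPSC, 0.981 and 0.654 in DE, 245 and 404 in GFP+ sBC and 290 and 429 in GFP- sBC. The sBC groups overlapped each other and lay above the earlier stages, with a log2 fold change of 10.54 ± 0.49 over hPSC in GFP+ sBC (edgeR adjusted p = 7.39e-06). GCH1, the cofactor enzyme, was the gene of the set with the widest expression before the sBC stage: it stood at 15.9 and 17.6 CPM in hPSC, 53.4 and 51.0 in DE, 295 and 424 in GFP+ sBC and 165 and 267 in GFP- sBC. Its groups kept the order hPSC, DE, GFP- sBC, GFP+ sBC without overlap, the last step not passing the test of the sort, and its log2 fold change of 4.42 ± 0.32 in GFP+ sBC over hPSC (edgeR adjusted p = 2.85e-05) was the smallest of the 7.

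The vesicle transporter and the transcription factors followed. SLC18A1 had 0.0147 and 0.0422 CPM in hPSC, no count in DE, 43.7 and 83.9 CPM in GFP+ sBC and 35.4 and 96.8 in GFP- sBC. Against a floor of 3 counts over the 2 DE libraries, GFP+ sBC were at least 3290-fold higher. FEV had 0.0147 and 0.0281 CPM in hPSC, 0.0523 and 0.0393 in DE, 67.5 and 145 in GFP+ sBC and 92.3 and 129 in GFP- sBC. Its hPSC level rests on 3 counts over both libraries, and the ratio of GFP+ sBC to hPSC was 4990 (95% counting interval 1710 to 24200, which covers counting error only). LMX1A had 0.221 and 0.141 CPM in hPSC, 7.68 and 12.5 in DE, 110 and 140 in GFP+ sBC and 107 and 129 in GFP- sBC. LMX1A was thus already above its hPSC level in both DE libraries, and its log2 fold change in GFP+ sBC was 9.42 ± 0.43 over hPSC and 3.63 ± 0.32 over DE (edgeR adjusted p = 7.39e-06 and 7.84e-05).

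TAC1, the peptide gene, had the least even values. It stood at 0.265 and 0.253 CPM in hPSC, 0.144 and 0.0131 in DE, 9.06 and 38.7 in GFP+ sBC and 7.50 and 50.5 in GFP- sBC. Each sBC group held 1 low and 1 high library, and both were above all hPSC and DE libraries, with a log2 fold change of 6.52 ± 1.25 in GFP+ sBC over hPSC (edgeR adjusted p = 0.00301). The count of 7 of 7 genes higher compares with 30.4% of all 23321 genes tested that were higher in GFP+ sBC than in hPSC, 29.9% higher in GFP+ sBC than in DE and 31.2% higher in GFP- sBC than in hPSC. These comparisons share their hPSC libraries or their GFP+ sBC libraries.

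**Figure D1:**
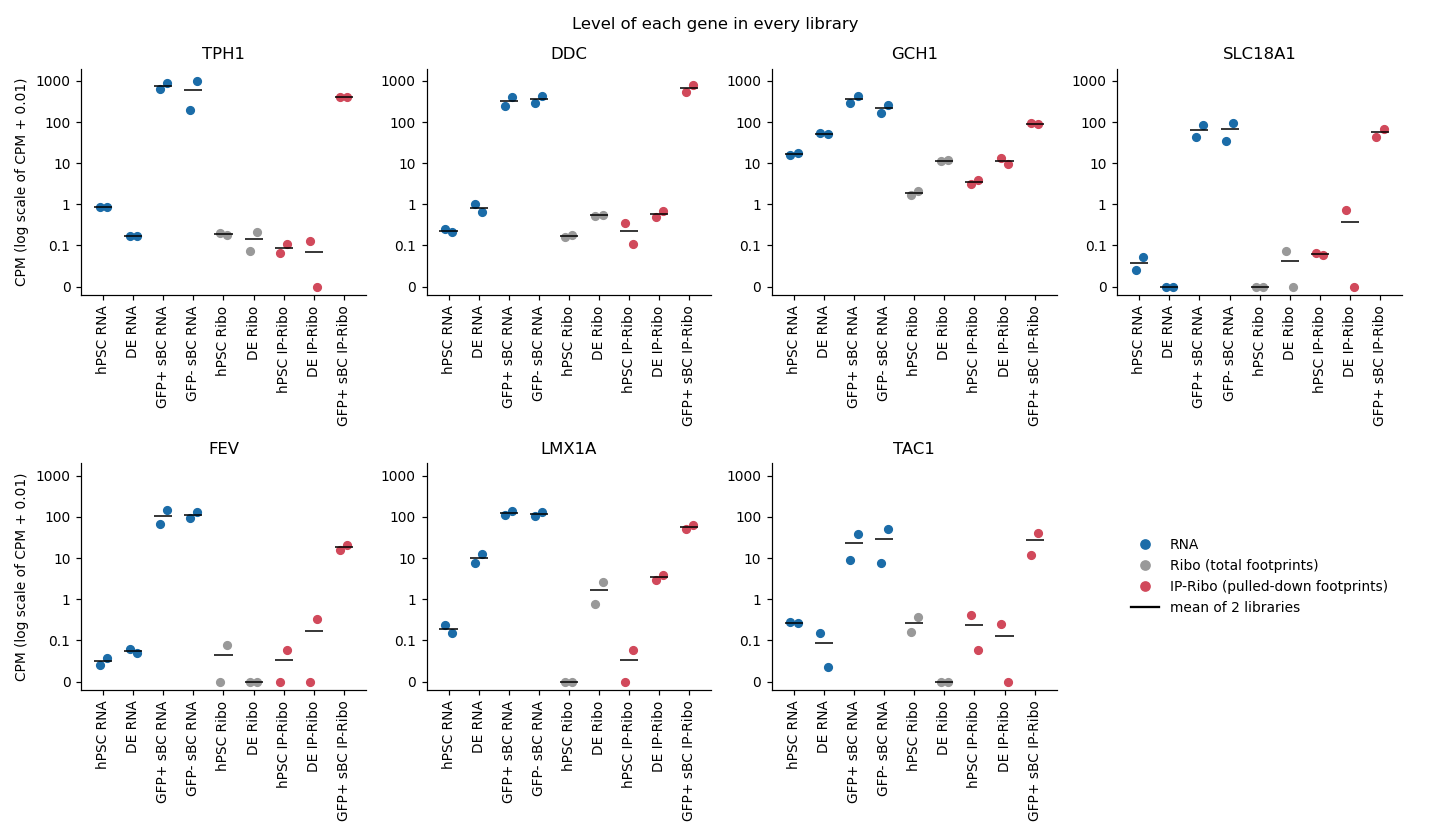
CPM of each of the 7 genes (y axis, log scale of CPM + 0.01) in every library (points, 2 per group) by stage and assay (x axis), with the mean of 2 libraries as a bar. All sBC libraries lie above all hPSC and DE libraries of the same assay for every gene. DDC, GCH1 and LMX1A lie above their hPSC level in DE in each of the 3 assays.

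Between hPSC and DE the genes did not move together. In RNA, DDC rose (log2 fold change 1.96 ± 0.32, edgeR adjusted p = 0.000221), GCH1 rose (1.69 ± 0.07, adjusted p = 2.74e-09) and LMX1A rose (5.85 ± 0.41, adjusted p = 6.83e-05). TPH1 fell (-2.38 ± 0.29, adjusted p = 2.44e-05), as did TAC1 (-1.65 ± 0.65, adjusted p = 0.0439). The call for TAC1 ended by DESeq2 (adjusted p = 0.234) and without DE replicate 2 or either hPSC library (edgeR adjusted p = 0.174 to 0.211), and neither TAC1 nor TPH1 passed when all 8 RNA libraries were fitted together (edgeR adjusted p = 0.439 and 0.0721). FEV and SLC18A1 were too low to be tested, with 7 against 3 and 0 against 4 counts. So 3 of 5 tested genes were higher and 2 lower, where 38.7% and 36.8% of all 20634 genes tested were called in these directions, and the count says nothing particular about the set. All but GCH1 and LMX1A were under 1 CPM in both stages, and LMX1A was under 1 CPM in hPSC.

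GCH1, LMX1A and DDC lay above their hPSC level in DE in both footprint assays, as in RNA. The share of all genes that did so was not counted. DDC had 0.152 and 0.166 CPM in hPSC and 0.505 and 0.555 in DE by Ribo, too low to be tested there. GCH1 had 3.16 and 3.95 CPM in hPSC and 13.3 and 9.70 in DE by IP-Ribo, and 1.68 and 2.13 in hPSC and 11.1 and 11.6 in DE by Ribo. Its log2 fold change was 1.68 ± 0.27 by IP-Ribo (edgeR adjusted p = 0.00621) and 2.57 ± 0.22 by Ribo (adjusted p = 0.0023). LMX1A had 0 and 0.0482 CPM in hPSC and 2.94 and 3.90 in DE by IP-Ribo, a single hPSC count, and the ratio was 141 (95% counting interval 24.8 to 5600). By Ribo it had no count in hPSC and 0.757 and 2.66 CPM in DE, at least 38.6-fold higher against the floor of 3 counts over the group. GCH1 and LMX1A passed in both assays (edgeR adjusted p = 0.000763 for LMX1A by IP-Ribo and 0.0201 by Ribo). This is 2 of 7 tested genes by IP-Ribo, where 9.78% of 16018 genes were higher, and 2 of 2 tested by Ribo, where 17.2% of 15454 were higher. Without either hPSC Ribo library 0 of these 2 genes passed by Ribo and without DE Ribo replicate 2 only 1 did, while without hPSC IP-Ribo replicate 1 only 1 of 7 passed by IP-Ribo. DDC did not pass by IP-Ribo (log2 fold change 1.47 ± 0.57, adjusted p = 0.106), though it did without a filter on low counts (1.51, edgeR adjusted p = 0.0345).

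The GFP sort did not separate the set. None of the 7 genes differed between GFP+ and GFP- sBC by the edgeR quasi-likelihood test, none had an unadjusted p under 0.05, and the DESeq2 Wald test called 0 of 7 as well. In the same comparison 2.43% of 19797 genes were called, 481 in all, and 7815 without GFP- replicate 2. GCH1 came closest: both GFP+ libraries (295 and 424 CPM) were above both GFP- libraries (165 and 267), with a log2 fold change of 0.73 ± 0.38 (edgeR adjusted p = 0.524). The other 6 overlapped between the groups, and the share of all genes that did so was not counted. The log2 fold changes of these 6 were 0.33 ± 0.66 for TPH1, -0.15 ± 0.38 for DDC, -0.06 ± 0.54 for SLC18A1, -0.06 ± 0.44 for FEV, 0.07 ± 0.33 for LMX1A and -0.28 ± 0.92 for TAC1. With standard errors of 0.33 to 0.92 on the log2 scale, these values do not show that the groups are alike. The sort did separate other genes of the same libraries: CFTR, a duct marker, had 8.54 and 8.79 CPM in GFP+ and 399 and 829 in GFP- sBC (log2 fold change -6.16 ± 0.51, edgeR adjusted p = 0.00311), and SST, a delta cell hormone, was higher in GFP+ (2.77 ± 0.34, adjusted p = 0.0087). INS itself had a log2 fold change of 1.78 ± 0.41 (adjusted p = 0.0749).

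**Figure D2:**
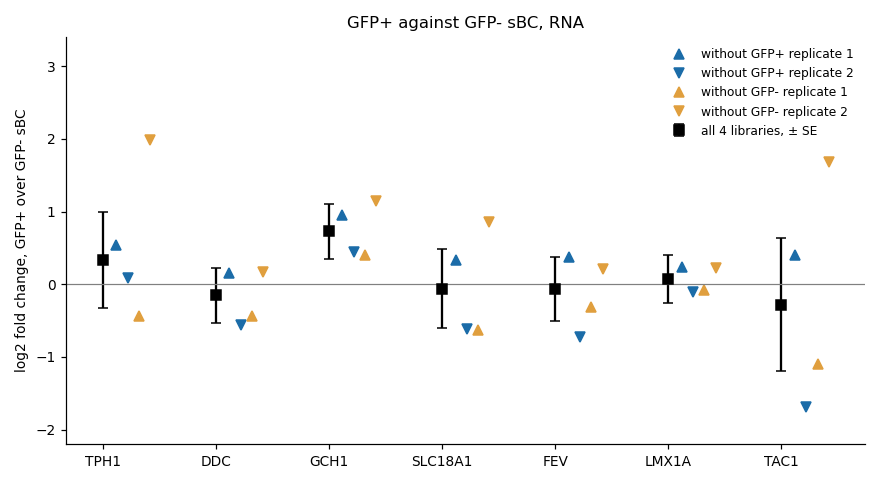
Log2 fold change of GFP+ over GFP- sBC RNA (y axis) for each gene (x axis), from all 4 libraries (black squares, ± SE) and with 1 library left out (triangles). The estimates from all 4 libraries lie between -0.28 and 0.73, and leaving out GFP- replicate 2 moves TPH1 to 1.99.

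For every gene of the set but GCH1, the 2 libraries of each sBC group differed from each other more than the groups did. Replicate 2 was above replicate 1 for all 7 genes in GFP+ sBC RNA and for all 7 in GFP- sBC RNA, by a median of 0.72 and 0.70 on the log2 scale. Over all genes at 1 CPM or more, the median of the same ratio was -0.01 and -0.02, and the median absolute ratio was 0.21 in GFP+ and 0.65 in GFP- sBC. TPH1 differed 5.23-fold between the GFP- libraries (194 and 1014 CPM) and 1.38-fold between the GFP+ libraries. TAC1 differed 6.73-fold and 4.27-fold. FEV and LMX1A differed 1.40-fold and 1.21-fold between the GFP- libraries and 2.15-fold and 1.28-fold between the GFP+ libraries, so that FEV was less even than TPH1 in GFP+ and more even in GFP- sBC. Without GFP- replicate 2, the high library, the log2 fold change of GFP+ over GFP- sBC was 1.99 for TPH1 and 1.14 for GCH1. Without GFP- replicate 1, TPH1 was at -0.43 and GCH1 at 0.40. A lone library is assumed in these fits to vary like the other group.

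The other enterochromaffin genes were mixed between the GFP- libraries, with 8 of 13 higher in replicate 2, as TPH1 was, and 5 lower. OR51E1, an olfactory receptor of enterochromaffin cells, was 6.55-fold higher in replicate 2, ADGRG4, an adhesion receptor, 5.31-fold and SLC38A11, an amino acid transporter, 3.25-fold. SLC18A2 (VMAT2), the second vesicular monoamine transporter, differed 2.30-fold. The general endocrine granule protein CHGA went the other way, with 22399 CPM in replicate 1 and 13430 in replicate 2, as did CXCL14 (7.14 and 2.38 CPM) and CES1 (1.17 and 0.587 CPM), while CHGB and ADRA2A were nearly even (1.05-fold and 0.986-fold). Replicate 1 also held more of COL1A1, a collagen of mesenchyme (41.8 against 6.14 CPM), and of the epithelial keratin KRT19 (753 against 295 CPM). It also held more INS (1702 against 981 CPM). Other markers of the same lists went the other way. CFTR had 399 CPM in replicate 1 and 829 in replicate 2, the beta cell marker SLC30A8 121 and 245, and the mesenchyme marker PDGFRA 1.68 and 2.35. The 4 duct and progenitor markers, KRT19 and CFTR among them, summed to 1322 to 1410 CPM in these libraries. The 4 mesenchyme markers together ranged from 9.25 to 65.2 CPM in GFP- sBC and from 3.99 to 4.69 in GFP+ sBC, and their part in the TPH1 values was not tested. The markers named here and beside the sort were picked from the marker lists after their values were seen.

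**Figure D3:**
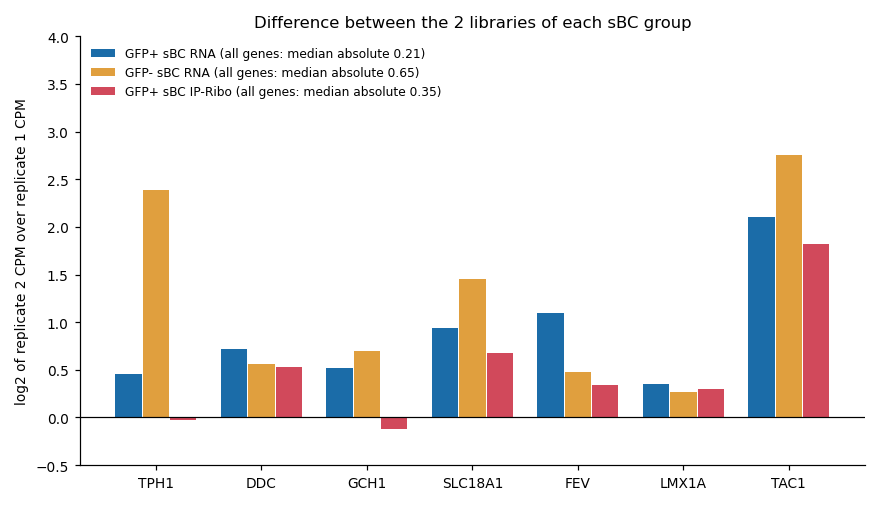
Log2 of the CPM in replicate 2 over that in replicate 1 (y axis) for each of the 7 genes (x axis) in GFP+ sBC RNA, GFP- sBC RNA and GFP+ sBC IP-Ribo (bars). All 14 RNA bars are above 0, and the TPH1 bar of GFP- sBC (2.39) stands apart from that of GFP+ sBC (0.46) and of IP-Ribo (-0.03).

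All 7 mRNAs were also found on tagged ribosomes of GFP+ sBC. TPH1 had 0.0565 and 0.0964 CPM in hPSC IP-Ribo, 0.118 and 0 in DE and 407 and 398 in GFP+ sBC. The 2 sBC libraries were nearly equal, and the log2 fold change over hPSC was 12.18 ± 0.54 (edgeR adjusted p = 1.56e-05). Since hPSC held 3 counts in all, the ratio of 5160 has a 95% counting interval of 1760 to 25000. DDC had 0.339 and 0.0964 CPM in hPSC, 0.471 and 0.662 in DE and 552 and 796 in GFP+ sBC, a log2 fold change of 11.59 ± 0.54 over hPSC (adjusted p = 1.63e-05). GCH1 reached 95.02 and 87.62 CPM in GFP+ sBC, a log2 fold change of 4.68 ± 0.29 over hPSC (adjusted p = 2.55e-05).

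For the vesicle transporter SLC18A1, GFP+ sBC footprints stood at 42.97 and 68.6 CPM against 2 counts in hPSC, a ratio of 1080 (95% counting interval 298 to 8930). FEV stood at 16.1 and 20.4 CPM against 1 count in hPSC, a ratio of 705 (interval 125 to 27900), and LMX1A at 51.0 and 62.6 CPM against 1 count, a ratio of 2190 (interval 392 to 86700). TAC1 stood at 11.8 and 41.7 CPM, again with replicate 2 above replicate 1, and its log2 fold change over hPSC was 6.92 ± 1.22 (edgeR adjusted p = 0.00503). The footprints of all 7 genes were thus higher in GFP+ sBC than in hPSC and than in DE (30.4% and 27.8% of 16018 genes were called higher), and these 2 comparisons share the sBC libraries. Duct markers were higher in the same libraries: all 4 duct and progenitor markers were called higher over hPSC by IP-Ribo, and they summed to 977 to 1114 CPM against 114 to 147 in hPSC and 738 to 1374 in DE. GFP- sBC RNA held these markers at 1322 to 1410 CPM and all 7 serotonin genes as well. The part of such cells in the footprints of the 7 genes was not tested.

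Within the libraries labelled GFP+ sBC, footprints were set against RNA. The footprint cells carried the lentiviral tag and the RNA cells are labelled with no tag. The ratio thus compares differently labelled cells and is not a measure of ribosome loading alone. DDC was higher in IP-Ribo than in RNA (log2 ratio 2.00 ± 0.30, edgeR adjusted p = 0.000239), while GCH1 (-1.04 ± 0.20, adjusted p = 0.00137) and FEV (-1.60 ± 0.37, adjusted p = 0.00423) were lower. On the scale of the 12 libraries of that fit, DDC had 184 and 303 CPM in RNA and 775 and 1169 in IP-Ribo, without overlap. GCH1 had 222 and 318 against 134 and 129, and FEV 50.7 and 109 against 22.7 and 29.9. The TPH1 ratio was 0.01 ± 0.21, with 485 and 667 CPM in RNA and 572 and 585 in IP-Ribo, the IP-Ribo pair lying inside the RNA pair. SLC18A1 (0.75 ± 0.50), LMX1A (-0.20 ± 0.27) and TAC1 (1.12 ± 0.85) did not pass either. So 1 of 7 was higher and 2 lower, where 28.0% of 22210 genes were higher and 28.8% lower, which is near the share of all genes.

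These ratios carry limits of scale and of cells. Scaling the 12 libraries together moved GFP+ sBC RNA by -0.41 and IP-Ribo by 0.49 to 0.55 on the log2 scale against scaling each assay on its own. With each assay scaled on its own, the log2 ratio was 1.05 for DDC, 0.16 for TAC1, -1.14 for LMX1A, -1.98 for GCH1 and -2.54 for FEV. It was -0.93 for TPH1 and -0.19 for SLC18A1, so that these 2 changed sign. The order of the 7 genes does not depend on that scale, but the size of each ratio and which genes lie below 0 do. Duct markers also stood higher in the pulled-down libraries of GFP+ sBC than in GFP+ RNA. CFTR had 255 and 392 CPM in IP-Ribo, 8.54 and 8.79 in GFP+ RNA and 399 and 829 in GFP- RNA. For KRT19 the values were 591 and 640, 165 and 281, and 753 and 295 CPM. The 4 duct and progenitor markers, none of them at 0, summed to 977 to 1114 CPM in IP-Ribo, 183 to 299 in GFP+ RNA and 1322 to 1410 in GFP- RNA, and all 4 had higher IP-Ribo than RNA (median log2 ratio 4.34). The part of these cells in the ratios of the 7 genes was not tested. FEV lost its call without GFP+ RNA replicate 2 (-0.97, edgeR adjusted p = 0.0936).

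**Figure D4:**
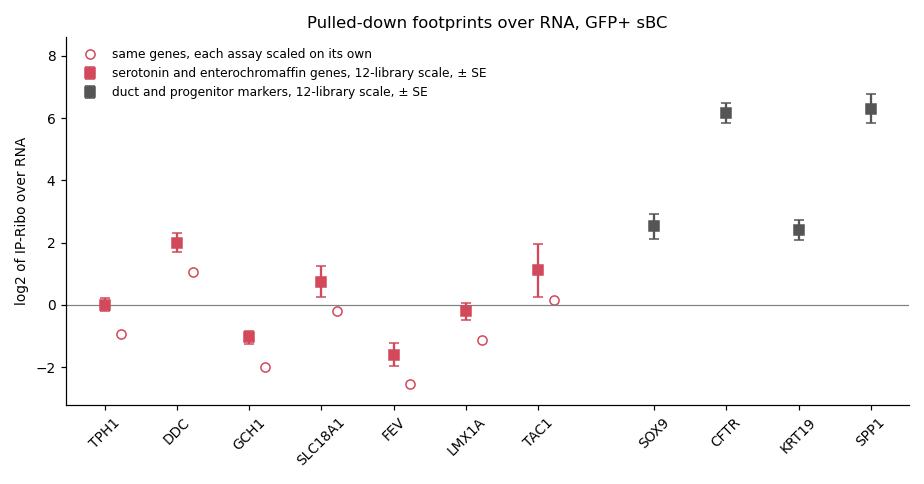
Log2 ratio of IP-Ribo over RNA in GFP+ sBC (y axis) for the 7 genes and 4 duct and progenitor markers (x axis), on the scale of 12 libraries (squares, ± SE) and, for the 7 genes, with each assay scaled on its own (open circles). The 7 genes run from -1.60 (FEV) to 2.00 (DDC), and the duct markers from 2.40 (KRT19) to 6.31 (SPP1).

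The change of that ratio from hPSC to GFP+ sBC passed for TPH1 alone of the 7 (log2 2.26 ± 0.62, edgeR adjusted p = 0.0328), and 11.0% of 22210 genes were higher in this comparison. Of all genes called there 73.4% were higher, and 62.5% with RLE in place of TMM scaling. It rests on 3 footprint counts in hPSC. The adjusted p was 0.0655 by DESeq2, and with single libraries left out it ran from 0.0289 to 0.235 and stayed under 0.05 only without GFP+ RNA replicate 2. For GCH1, the gene with enough hPSC footprints to measure the ratio, the change was 0.00 ± 0.27.

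The genes around the pathway showed how far the rest of the serotonin system followed. In the monoamine list, 7 of 13 tested genes were higher in GFP+ sBC than in hPSC RNA and 1 lower (list median log2 1.27), where 30.4% of all genes were higher and 30.9% lower and the median of all genes was 0.04. SLC18A2, VMAT2, had 1.15 and 1.18 CPM in hPSC and 164 and 154 in GFP+ sBC (log2 fold change 7.09 ± 0.52), and SLC6A4, the serotonin reuptake transporter, 0.397 and 0.394 against 34.06 and 35.04 (6.44 ± 0.31). TH, tyrosine hydroxylase of the catecholamine pathway, was higher as well (5.66 ± 0.72), with 3.50 and 7.73 CPM in GFP+ sBC. HDC, which makes histamine, was lower (-3.75 ± 1.05). TPH2, the hydroxylase of serotonin neurons, did not pass (-0.47 ± 0.38) and stood at 0.946 and 1.65 CPM in GFP+ sBC against 1.63 and 1.97 in hPSC, and SLC7A5, a large amino acid transporter, did not pass either (0.59 ± 0.36). The adjusted p-values of the genes named as higher or lower here and in the paragraphs on related genes that follow were between 5.5e-06 and 0.0425 by edgeR.

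Of 6 tetrahydrobiopterin genes counted here 3 were higher in GFP+ sBC than in hPSC and none lower (median 0.54), against DE 1 was higher and 1 lower (median -0.33), and in GFP- sBC over hPSC 3 were higher and 2 lower (median 0.50). QDPR, which recycles the cofactor, rose by 1.92 ± 0.26, SPR, which makes it, by 1.44 ± 0.21 and PCBD1, a dehydratase of its recycling, by 1.08 ± 0.17. PTS, the enzyme after GCH1, and GCHFR, the feedback regulator of GCH1, did not pass (-0.40 ± 0.36 and 0.00 ± 0.22). Against DE, QDPR was higher (2.14 ± 0.26, edgeR adjusted p = 0.000368), PCBD1 was lower (-0.84 ± 0.17, adjusted p = 0.00382) and SPR did not pass (0.26 ± 0.21). Of 14 serotonin receptors 8 were tested, with 3 higher and 4 lower (median -0.57). HTR1E (4.70 ± 0.49), HTR1F (3.79 ± 0.75) and HTR1B (1.92 ± 0.38) were higher, though none of the 3 was above 2.21 CPM in a GFP+ library. HTR7 (-6.64 ± 0.50) and HTR1D (-5.87 ± 0.58) were lower, and HTR3A, with 4.16 and 3.73 CPM in hPSC and no count in GFP+ sBC, was at least 95.1-fold lower. Of the other tachykinin genes and receptors 3 of 5 were tested: TAC3 was lower (-2.47 ± 0.88) and TACR1, the substance P receptor, did not pass (0.45 ± 0.34). TAC4 had 3 counts in hPSC and none in GFP+ sBC.

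Of 13 other enterochromaffin markers 9 were higher and none lower (median 3.98, or 3.75 with genes at 0 in hPSC set at their bound). ADGRG4 had 0.0147 and 0 CPM in hPSC and 32.3 and 43.4 in GFP+ sBC. OR51E1 and SLC38A11 had no count in hPSC and were at least 312-fold and 311-fold higher, at 5.65 and 7.75 CPM and at 5.13 and 8.15 CPM in GFP+ sBC. CXCL14 and CES1 did not pass (2.24 ± 0.86 and 0.22 ± 0.58). Of 11 counted transcription factors of gut endocrine and serotonergic cells 8 were higher and 2 lower (median 6.17). NEUROD1 (0.0441 and 0.0141 against 528 and 449 CPM), NKX2-2 (11.15 ± 0.33) and INSM1 (8.63 ± 0.48) had the largest changes of these 11, and all 3 are also factors of islet cells. ATOH1, a factor of intestinal secretory cells, had no count in GFP+ sBC and was at least 21.2-fold lower, GATA2 was lower (-4.63 ± 1.26) and GATA3 did not pass (0.30 ± 0.98). In the sort, no gene of these 6 lists was called among 48 tested by edgeR, and 11 had an unadjusted p under 0.05, which 12.1% of all 19797 genes had. DESeq2 called 6 of 50, namely CXCL14, DBH, GATA2, HTR2C, SLC6A4 and TAC3, where it called 5.45% of all 23211 genes with an adjusted p. Serotonin neuron markers overlap this set: 5 of them summed to 293 to 309 CPM in GFP+ sBC RNA and 151 to 235 in GFP- sBC RNA, mostly SLC18A2, LMX1B and SLC6A4, and none was at 0.

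**Figure D5:**
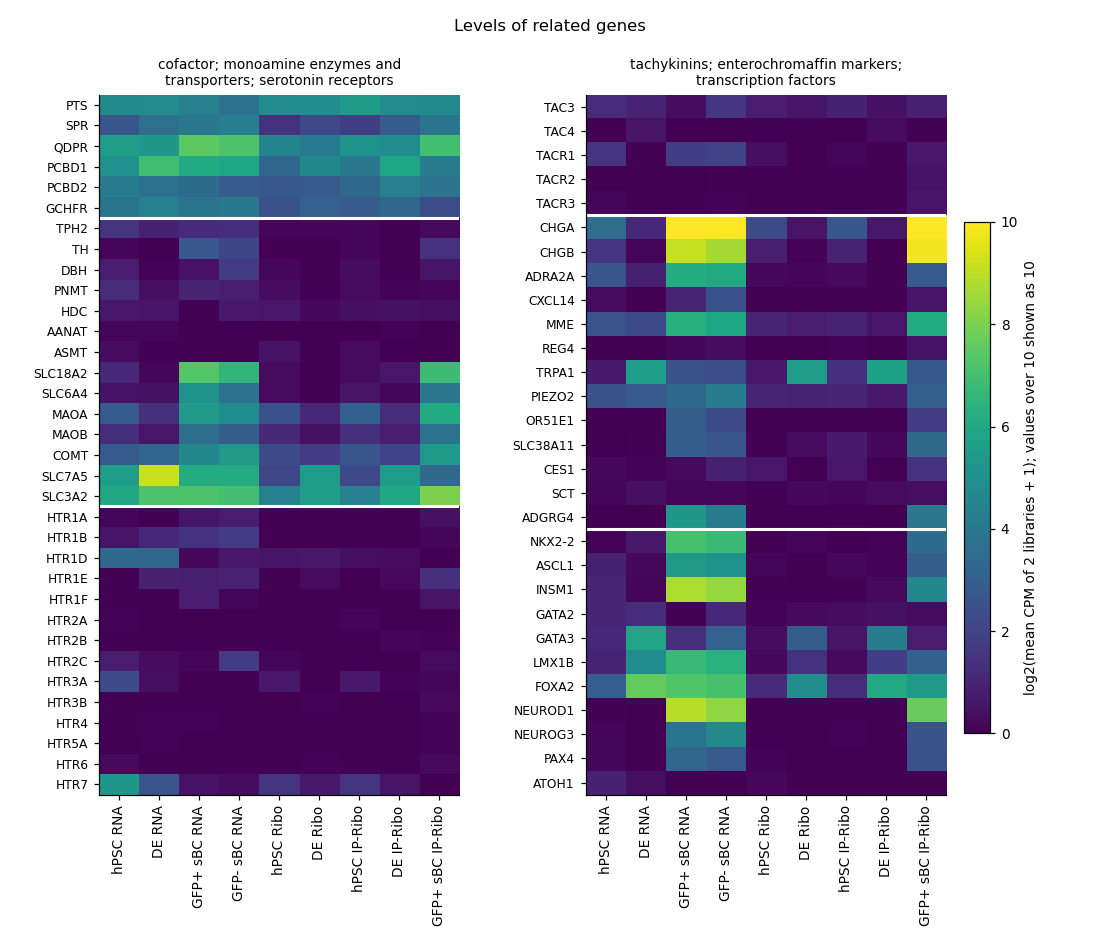
Mean level of each related gene (rows) in the 9 groups (columns), as log2 of the mean CPM of 2 libraries + 1 (colour, values over 10 drawn as 10), with white lines between lists. SLC18A2, the chromogranins and NEUROD1 are brighter in the sBC columns than in hPSC and DE, and SLC6A4 less so, while TPH2 and most HTR receptors are dark in all sBC columns.

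The protein-coding genes whose RNA pattern was most like each of the 7 were found by Pearson correlation of log2(CPM + 1) over the 8 RNA libraries, among 14078 other genes with a mean of at least 1 CPM. For TPH1 they were PCSK1, the prohormone convertase (r = 0.9993), CYP2J2 (0.9989) and GLB1 (0.9989). For SLC18A1 they were FFAR2, a receptor of short-chain fatty acids (0.9989), SCN3A, a sodium channel (0.9985), and C16orf54 (0.9978). FFAR2 stood at 26.4 CPM on average in GFP+ sBC and 25.4 in GFP- sBC. It was also among the 3 for FEV (0.9988), with IGFBP3 (0.9995) and PTHLH (0.9988). For DDC they were PRR15L (0.9994), SEC61A1 (0.9988) and TMEM63B (0.9983), and for GCH1 MANEAL (0.9972), TNFRSF19 (0.9961) and CALCOCO2 (0.996). For LMX1A they were CTSB (0.9984), ANG (0.998) and CD63 (0.9973), and for TAC1 MBL2 (0.9988), CYP2C19 (0.9948) and GLYATL3 (0.9929), 3 genes at 2.02 to 2.84 CPM on average in GFP+ sBC. With 8 libraries in 4 groups, these values mostly repeat the step from hPSC and DE to sBC. By Spearman correlation 9 to 29 genes reached at least the 3rd highest value for each of the 7, so that no 3 genes stood out.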

How the data were processed

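The authors deposited 1 table of expected counts (estimated read counts per gene) for 57808 genes and 18 libraries, and 16.8% to 31.3% of the values of a library have decimals. Per the submitters' processing notes, Salmon, DESeq2, UMI-tools, cutadapt and Bowtie were used on GRCh38. Their versions, their roles and the annotation release are not given in the sources used here. Per the labels' protocols, ribosomal RNA was removed before RNA libraries and footprints were made with RNase I without cycloheximide. Counting by strand is not stated. Genes that overlap the 7 genes held at most 83 counts in any library. Counts were rounded, and genes that passed filterByExpr were compared by edgeR 4.0.16 under R 4.3.3 (TMM, robust quasi-likelihood test, Benjamini-Hochberg over all tested genes, adjusted p under 0.05), with the code tested on simulated data. Fits held 4 libraries for the sort and for DE against hPSC in RNA and in Ribo, 8 for other RNA comparisons, 6 for IP-Ribo and 12 for IP-Ribo over RNA. In all, 11 comparisons were made. Alternatives were RLE scaling, other filters, DESeq2 1.42.0, a fold threshold (glmTreat), protein-coding genes alone, a replicate block and leaving out each library. Whether replicate numbers pair libraries across groups is not stated, so the main fits used no block. Replicate differences had correlations of -0.25 to 0.08 between groups, which do not settle whether libraries pair. All 7 genes are reported. From lists of related genes, up to 3 called genes per list and direction with the largest change and up to 2 others with the highest level are named, mostly for GFP+ sBC against hPSC. Of the listed genes 2 are not reported here and were left out of the list counts and sums, though they stayed in the fits. The genes and lists were chosen with earlier results of these data known. Levels were computed and figures drawn in Python 3.11.15 with pandas 2.3.3 and matplotlib 3.10.9.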

Additional observations from a re-analysis of the deposited data

How the results depend on the processing

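Every alternative kept all 7 genes higher in GFP+ sBC than in hPSC and DE by RNA and IP-Ribo, and in GFP- sBC than in hPSC by RNA. The other results were less firm, and the cause of these shifts was not tested. For the GFP sort, the 481 genes called became 1596 without a filter, 1265 by DESeq2, 1258 with a replicate block, 245 by glmTreat and 1263 when all 8 RNA libraries were fitted together. With single libraries left out they ran from 384 to 7815, the highest without GFP- replicate 2, and the members called from 0 to 2. The log2 fold changes of the sort then ran from -0.43 to 1.99 (TPH1), -0.56 to 0.17 (DDC), -0.63 to 0.86 (SLC18A1, 0.04 with the replicate block), -0.72 to 0.38 (FEV), -0.11 to 0.24 (LMX1A) and -1.69 to 1.68 (TAC1).

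By glmTreat, which asks for a fold over 2, RNA called 5334 genes for DE against hPSC, 9333 and 8852 for GFP+ sBC against hPSC and DE, and 8743 for GFP- sBC against hPSC. IP-Ribo called 1055 for DE against hPSC and 5552 for GFP+ sBC against DE, Ribo 1487 for DE against hPSC, IP-Ribo over RNA 7425 and its change 1350. This test called 1 member for DE against hPSC by IP-Ribo, 1 for IP-Ribo over RNA and 0 for its change, where DESeq2 also called 0. For DE against hPSC in RNA, all 8 libraries in 1 fit called 6561 genes and 3 members, and the stricter filter 2 members. The stricter filter also left 1 member for DE against hPSC by Ribo.

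With single libraries left out, DE against hPSC called 1097 to 3144 genes and 1 to 3 members by IP-Ribo (1097 genes without hPSC replicate 1 and 1317 without hPSC replicate 2), and 73 to 5782 genes and 0 to 2 members by Ribo (73 genes without hPSC replicate 2 and 201 without hPSC replicate 1). The change of IP-Ribo over RNA called 1748 to 3275 genes and 0 to 1 members. For DE against hPSC by IP-Ribo, values ran from -3.43 to 0.52 (TPH1), -2.92 to 3.51 (SLC18A1), -1.83 to 4.55 (FEV) and -4.79 to 0.35 (TAC1). For IP-Ribo over RNA they ran from -0.22 to 0.23 (TPH1) and -0.28 to 2.49 (TAC1). For its change they ran from -0.05 to 1.69 (DDC), -0.43 to 0.29 (GCH1), -4.05 to 1.04 (FEV) and -1.23 to 2.04 (TAC1). IP-Ribo over RNA of TPH1 was -0.2 without a filter, -0.1 with protein-coding genes alone and -0.93 with each assay scaled on its own, a setting chosen after seeing the data that put SLC18A1 at -0.19. The change for GCH1 was -0.13 by RLE and by DESeq2 and -0.2 without a filter.

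The replicate block moved no other count of genes by over 1.5 times and no count of members. Crossed replicate numbers, also chosen after seeing the data, gave 5086 genes for DE against hPSC by Ribo and 3642 by IP-Ribo, where the numbers as given called 3649 and 2530. Low counts limited FEV and SLC18A1 in the RNA comparison of DE with hPSC, where they were too low to be tested. They also limited the footprint ratios over hPSC of TPH1, SLC18A1, FEV and LMX1A, which rest on 1 to 3 hPSC counts.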
